A study of Mus musculus with 3 samples.

Results

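The microRNAs described here are the 6 mature products of 3 hairpins known from leukocytes, miR-223, miR-142 and miR-150, each with a 5p and a 3p arm. They were taken by name from the 1908 mature microRNAs listed in the count tables of mouse liver. The red-cell miR-451a was used as a reference only. The question was whether miR-142, found in all leukocytes, and miR-150, found mainly in lymphocytes, followed the myeloid miR-223-3p over the stages of ischemia-reperfusion injury.

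All mice were male, of the inbred strain C57BL/6J and 8 to 10 weeks old, and the labels name no transgene or deletion. In the Sham group the abdomen was opened without occlusion, and the liver was taken 1.5 h later. In the warm ischemia (WI) group the vessels of the left and median lobes were clamped for 1.5 h and the liver was taken without release. In the group with ischemia followed by reperfusion (IR), the same clamping was followed by 2 h of restored flow. Each group gave 1 small RNA library, and whether RNA of several mice was pooled is not given in the sources used here. IR livers were taken later after surgery than Sham and WI livers, so reperfusion and time since surgery cannot be told apart.

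The libraries held 3784539 to 5064014 microRNA reads, and 851 microRNAs had at least 1 read in any of them. The study reports that a smaller share of the clean small RNA reads aligned to the genome in IR than in Sham or WI. The liver microRNAs were present in every library. The sum of 4 hepatocyte microRNAs (miR-122-5p, miR-122-3p, miR-192-5p and miR-194-5p) was between 259963 and 285072 normalised reads per 1000000 (CPM). All intervals and p-values below cover the counting error of 2 libraries. They compare 1 library with another, and nothing here was checked in replicates.

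A microRNA is cut from a hairpin whose stem gives a 5p and a 3p strand, and usually 1 of them is kept in the silencing complex. Bases 2 to 8 of the kept strand, the seed, select the messenger RNAs that it represses. MiR-223 is made in the myeloid lineage, above all in neutrophils and monocytes, and restrains neutrophil activation. MiR-142 is transcribed across the hematopoietic lineages and is used as a general mark of blood-derived cells. MiR-150 is abundant in mature B, T and NK cells and represses Myb, a transcription factor of early lymphocyte development. In the liver these microRNAs can come from resident Kupffer cells and lymphocytes, from blood left in the vessels, and from leukocytes that enter the tissue.

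The mature sequences are shown so that it can be seen how far the members are from each other and from other microRNAs. Of the 6 members, 5 were matched by name to RefSeq (build GRCm38.p6), where the miR-142 arms are called miR-142a. MiR-150-5p had no match there, so its seed and closest sequence were not checked. Listed microRNAs without a RefSeq entry were not compared either. The seed is in capitals and the sequences run 5′ to 3′.

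miR-223-3p: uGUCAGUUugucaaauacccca

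miR-223-5p: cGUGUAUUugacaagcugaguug

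miR-142-5p: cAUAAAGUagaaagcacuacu

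miR-142-3p: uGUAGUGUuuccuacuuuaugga

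miR-150-3p: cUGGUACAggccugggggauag

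Each of these had a seed of its own, and 0 other mature microRNAs of the 1679 in the RefSeq table shared it. The closest mature sequence in RefSeq differed at 3 or more bases for each of these 5, whereas the alignment of the study allowed 1 mismatch. The nearest was miR-3964, which differed from miR-142-5p at 3 bases. A separate entry, miR-142b, is read from the opposite strand of the miR-142 hairpin, and its 20 bases are fully complementary to a stretch of miR-142-3p. It had 1 read in Sham and 0 in WI and IR, which allows up to 0.617 CPM in WI and 0.785 CPM in IR at a limit of 3 reads.

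Both hairpins below are printed with their 2 arms in capitals, because the 2 arms differed in their changes between the libraries. Each is on the plus strand of GRCm38.p6, Mir223 at chrX:96242817-96242926 and Mir142 at chr11:87756864-87756927.

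Mir223: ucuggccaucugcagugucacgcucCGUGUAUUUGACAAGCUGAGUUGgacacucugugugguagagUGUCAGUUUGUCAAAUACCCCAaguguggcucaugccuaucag

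Mir142: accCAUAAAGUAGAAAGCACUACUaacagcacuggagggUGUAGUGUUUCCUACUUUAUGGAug

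In the mm9 build, which the methods of the study name for small RNA, the miR-223 hairpin lies in an exon of the processed transcript F630028O10Rik on chromosome X (93438156 to 93438265). The miR-142 hairpin lies in an intron of the processed transcript A430104N18Rik on chromosome 11 (87570366 to 87570429). The miR-150 hairpin lies on chromosome 7 (52377127 to 52377191) outside other annotated genes. All 3 are on the plus strand.

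The levels of the members spanned a wide range, and the order changed in IR. MiR-142-5p was the most abundant member in every library, with 10832 reads (Sham), 13001 (WI) and 8955 (IR). Of all reads of the 6 members it held 88.7%, 87.6% and 83.7% in that order. It ranked 34 to 36 among all microRNAs by reads.

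MiR-223-3p had 435 reads (Sham), 528 (WI) and 902 (IR). MiR-150-5p had 472, 508 and 365 reads, and miR-142-3p had 435, 740 and 454. In Sham these 3 microRNAs could not be ordered beyond counting error. The ratio of miR-150-5p to miR-223-3p was 1.09 (95% exact interval 0.951 to 1.24), and miR-223-3p and miR-142-3p had the same number of reads (ratio interval 0.874 to 1.14).

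In WI, miR-142-3p was above miR-223-3p by a ratio of 1.40 (1.25 to 1.57), while miR-223-3p and miR-150-5p were not separated (ratio 1.04, 0.918 to 1.18). In IR all neighbours were separated, and miR-223-3p was above miR-142-3p by a ratio of 1.99 (1.77 to 2.23). It ranked 96 among all microRNAs by reads in IR, 122 in Sham and 121 in WI. The efficiency of adapter ligation differs between microRNAs, so such ratios describe reads and not molecules.

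The minor arms were rare. MiR-223-5p had 39 reads (Sham), 55 (WI) and 22 (IR). MiR-150-3p had 4, 5 and 1 reads, which put it near the limit of 3 reads (0.758, 0.617 and 0.785 CPM), and no change of it was detectable at this depth.

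**Figure D1:**
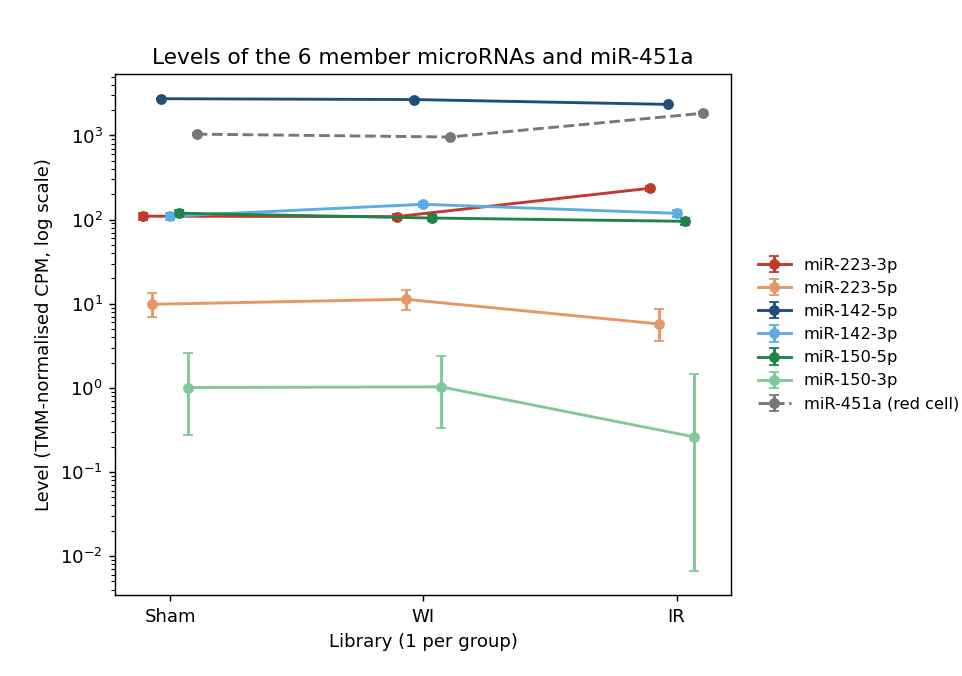
Levels of the 6 members and of red-cell miR-451a (y axis, TMM-normalised CPM on a log scale) in the Sham, WI and IR libraries (x axis), with bars for 95% exact Poisson intervals of the reads. MiR-223-3p goes from 110 and 109 CPM in Sham and WI to 236 in IR, while miR-142-5p and miR-150-5p are lowest in IR.

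After ischemia alone, none of the 6 members was called. A call required a fold change above 1.5 and a p under 0.01 in Fisher's exact test on the reads, as in the methods of the study. Among all 782 tested microRNAs 1.92% were called, and 5.02% of the 279 with at least 100 reads over the 3 libraries. A count of 0 in 6 is near this background. MiR-223-3p was at 110 CPM in Sham and 109 in WI, a fold of 0.988 (95% exact interval 0.869 to 1.12). MiR-142-5p was at 2735 and 2672 CPM, a log2 fold change of -0.034 (SE 0.019, Fisher's exact p = 0.0740). MiR-150-5p was at 119 and 104 CPM, a fold of 0.876 (0.771 to 0.995, Fisher's exact p = 0.0398). The intervals of miR-223-3p and miR-150-5p leave room for small changes and lie inside the fold threshold in both directions.

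MiR-142-3p, the minor arm of the pan-leukocyte hairpin, was the member with the largest difference in WI. It was at 110 CPM in Sham and 152 in WI, a log2 fold change of 0.47 (counting SE 0.087). This exceeded counting error (Fisher's exact p = 5.44e-08, Benjamini-Hochberg adjusted p = 8.34e-07) but stayed below the fold threshold with a fold of 1.38 (1.23 to 1.56). With the genome-aligned read totals in place of TMM scaling its log2 fold change was 0.62 and it was called. Among the 279 microRNAs with at least 100 reads it ranked 21 from the top in this comparison.

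After reperfusion the members parted. Between IR and WI, 1 member was called higher and 1 lower, where 9.25% of all 789 tested microRNAs were called (6.21% higher and 3.04% lower) and 20.1% of the 279 with at least 100 reads. Whether a count of 2 in 6 differs from these shares was not tested. MiR-223-3p rose from 109 to 236 CPM, a fold of 2.17 (1.95 to 2.42) and a log2 fold change of 1.12 (SE 0.079, Fisher's exact p = 2.23e-47). Its other arm, miR-223-5p, fell from 11.3 to 5.75 CPM, a fold of 0.509 (0.295 to 0.848). This call was marginal (Fisher's exact p = 0.00786, Benjamini-Hochberg adjusted p = 0.0428) and was lost under library totals, where the Fisher's exact p was 0.0113.

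The miR-142 and miR-150 arms did not rise. MiR-142-5p went from 2672 to 2342 CPM, a log2 fold change of -0.19 (SE 0.020). MiR-142-3p went from 152 to 119 CPM, a fold of 0.781 (0.693 to 0.878). Both differences exceeded counting error (Fisher's exact p = 4.40e-22 and 3.00e-05) and were below the fold threshold. So did that of the abundant hepatocyte miR-192-5p, with a log2 fold change of -0.12 (SE 0.0020). The share of all microRNAs that differed beyond counting error below the fold threshold was not counted in any comparison. With genome-aligned totals miR-142-3p was called lower, with a log2 fold change of -0.68. MiR-150-5p was at 104 CPM in WI and 95.4 in IR, a fold of 0.914 (0.797 to 1.05, Fisher's exact p = 0.195). With genome-aligned totals its log2 fold change was -0.45 (Fisher's exact p = 4.03e-06), still below the fold threshold. With TMM the upper ends of the intervals of miR-142-3p and miR-150-5p, 0.878 and 1.05, are below the lower end of 1.95 for miR-223-3p.

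Against Sham, miR-223-3p was the only member called, where 7.11% of all 774 tested microRNAs (5.68% higher) and 15.4% of those with at least 100 reads were called. A count of 1 in 6 is near the latter share and is no result about the members as a group. The log2 fold change was 1.10 (SE 0.084), a fold of 2.15 (1.91 to 2.41), which ranked 17 from the top among the 279 microRNAs with at least 100 reads. MiR-223-5p was at 9.85 CPM in Sham and 5.75 in IR, which differ by -0.77 on the log2 scale (SE 0.38, Fisher's exact p = 0.0539). It ranked 274 of the 279, so the arms of 1 hairpin stood near opposite ends of the distribution. The rank of miR-223-5p rests on 22 reads in IR and 39 in Sham. The arms of hairpins other than those of the members were not compared.

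MiR-150-5p was lower in IR than in Sham, at 95.4 against 119 CPM, a log2 fold change of -0.32 (SE 0.10). This exceeded counting error (Fisher's exact p = 0.00146, Benjamini-Hochberg adjusted p = 0.0102), and the fold of 0.801 (0.697 to 0.920) was below the threshold. MiR-142-5p was also lower, with a fold of 0.856 (0.832 to 0.881). MiR-142-3p was at 119 CPM, near the 110 of Sham, a fold of 1.08 (0.946 to 1.24, Fisher's exact p = 0.254). IR against WI and IR against Sham share the IR library and are not separate evidence.

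Read as a group, the 6 members had a median log2 fold change of 0.0027 from Sham to WI, where the median of all tested microRNAs was 0.046. From WI to IR the medians were -0.27 (members) and -0.013 (all tested), and from Sham to IR they were -0.27 and 0.036. The medians of the members weigh miR-150-3p, with 1 read in IR, and miR-223-5p, with 22, like the abundant arms. In whole tissue, fewer cells of a type and less of a microRNA per cell cannot be told apart.

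**Figure D2:**
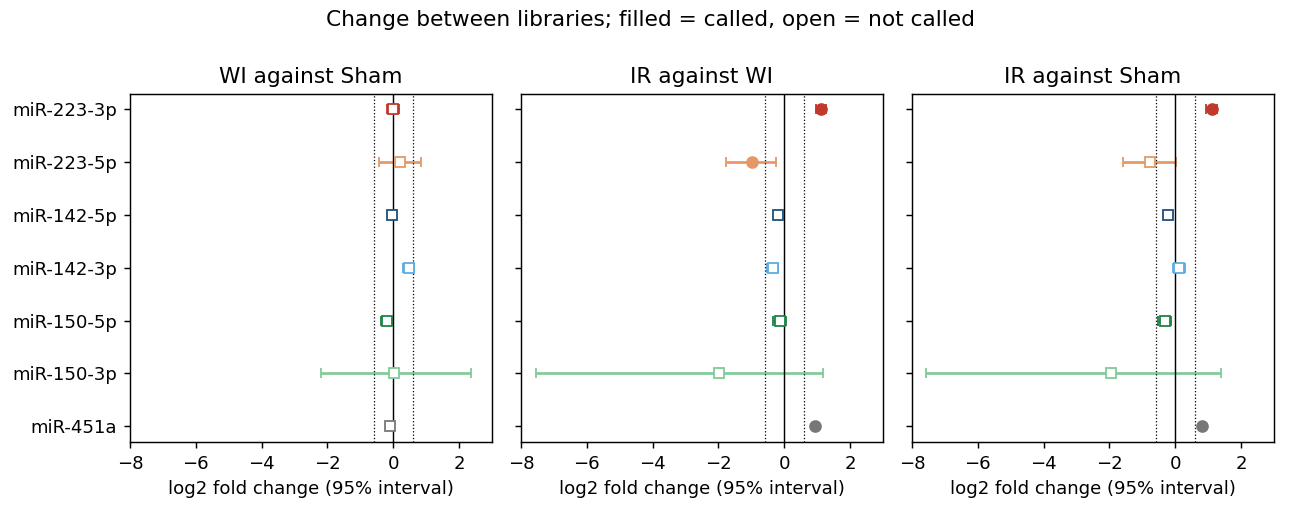
Log2 fold change (x axis, without pseudocount, bars for 95% exact intervals of the reads) of each member and of miR-451a in the 3 comparisons, with dotted lines at a fold of 1.5. MiR-223-3p and miR-451a are called higher in both comparisons with IR, miR-223-5p is called lower in IR against WI, and no member is called in WI against Sham.

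Whether the other members followed miR-223-3p was then tested within libraries, because a ratio of 2 microRNAs of the same library needs no scaling between libraries. Of the 5 other members, 1 changed its ratio to miR-223-3p between Sham and WI, 4 between WI and IR and 4 between Sham and IR, at a p under 0.01 in Fisher's exact test. With p-values adjusted over the 15 such tests (Benjamini-Hochberg) and the same threshold, these counts were the same. The share of all microRNAs whose ratio to miR-223-3p changed was not computed. MiR-223-3p itself was higher in IR by 1.12 (log2) against WI and 1.10 against Sham. A microRNA with many reads and no change of its own would therefore also be counted as changed.

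The reads of miR-142-5p per read of miR-223-3p were 24.9 (Sham), 24.6 (WI) and 9.93 (IR). On the log2 scale the change of this ratio in IR relative to Sham was -1.33 (SE 0.087, 95% interval -1.50 to -1.16, Fisher's exact p = 2.14e-56). From Sham to WI its log2 change was -0.016 (interval -0.20 to 0.17). The pan-leukocyte major arm was thus lower relative to miR-223-3p in IR, and in WI a change larger than that interval was not seen.

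For the lymphoid miR-150-5p, the reads per read of miR-223-3p were 1.09 (Sham), 0.962 (WI) and 0.405 (IR). In IR relative to Sham the log2 change of the ratio was -1.42 (SE 0.13, Fisher's exact p = 5.72e-28), and the log2 change from Sham to WI was -0.17 (interval -0.43 to 0.084). The intervals for miR-142-5p (-1.50 to -1.16) and miR-150-5p (-1.68 to -1.17) overlapped, and a difference between them was not tested. Both ratios share the reads of miR-223-3p, so a microRNA with no change of its own from Sham to IR would have a ratio lower by the 1.10 (log2) that miR-223-3p itself was higher, and the 2 values are not separate evidence.

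MiR-142-3p had as many reads as miR-223-3p in Sham, 1.40 times as many in WI and 0.503 times as many in IR. The log2 change of its ratio was 0.49 in WI relative to Sham (SE 0.13, Fisher's exact p = 0.000142) and -0.99 in IR relative to Sham (SE 0.13). MiR-150-3p, with 1 read in IR, gave no ratio that passed the threshold (Fisher's exact p = 0.0420 for IR against Sham).

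These tests leave out variation between animals. With an assumed coefficient of variation of 0.1 added to each count, the number of changed ratios was 4 in both comparisons with IR and 0 in WI against Sham. With 0.2 it was 1 in both comparisons with IR, and that 1 was miR-223-5p, the other arm of the reference. No miR-142 or miR-150 ratio then passed the threshold of 0.01 in either comparison with IR. With 0.4 the number was 0.

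**Figure D3:**
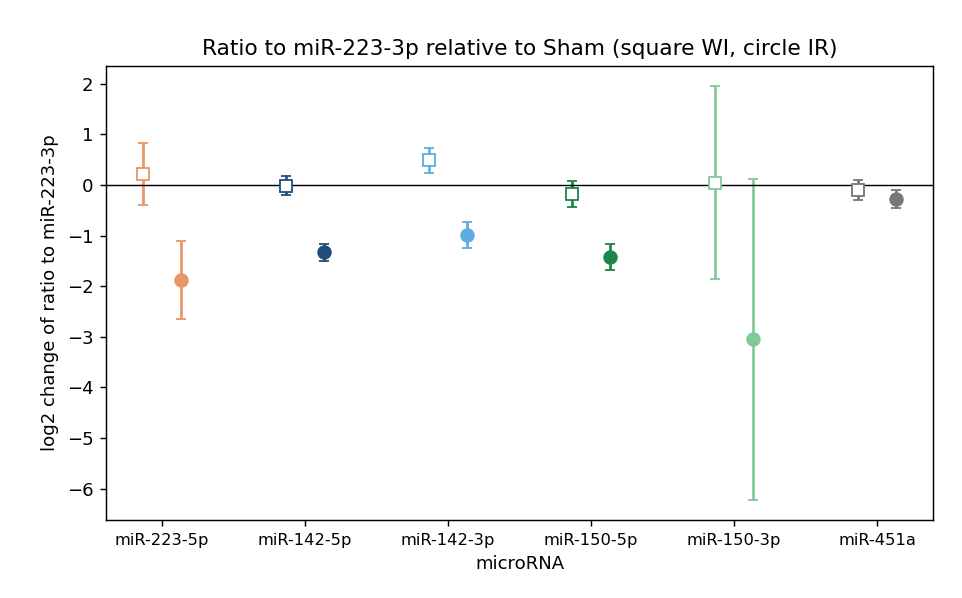
Log2 change of the ratio to miR-223-3p relative to Sham (y axis) for the 5 other members and miR-451a (x axis), with squares for WI, circles for IR and bars for 95% intervals from the counts. All members lie below 0 in IR, with miR-142-5p at -1.33 and miR-150-5p at -1.42, and miR-451a lies at -0.28.

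The arms of each hairpin were compared in the same way. Hairpins other than those of the members were not tested, so how common such arm differences are between these libraries is not known. For miR-223 the 5p arm took 8.23% of the reads in the Sham library (95% Wilson interval 6.08 to 11.1). Its share was 9.43% in WI (7.32 to 12.1), and in IR it was 2.38% (1.58 to 3.58). Per read of the 5p arm there were 11.2 (Sham), 9.60 (WI) and 41.0 (IR) reads of the 3p arm. The log2 change of the 5p to 3p ratio was -2.09 in IR relative to WI (SE 0.37, Fisher's exact p = 2.66e-09) and -1.88 relative to Sham (SE 0.39, Fisher's exact p = 1.21e-06). From Sham to WI it did not differ beyond counting error (log2 change 0.22, interval -0.40 to 0.84). The rise of miR-223 in IR was thus found in the major arm, and the minor arm, with 22 reads in IR, did not share it.

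The arms of miR-142 moved in WI instead. The 3p arm took 3.86% (Sham), 5.39% (WI) and 4.83% (IR) of the miR-142 reads. Relative to Sham the log2 change of the 5p to 3p ratio was -0.50 in WI (SE 0.089, Fisher's exact p = 1.29e-08) and -0.34 in IR (SE 0.099, Fisher's exact p = 0.000735). Between WI and IR it did not pass the threshold (Fisher's exact p = 0.0607). Adding a coefficient of variation of 0.1 removed both miR-142 differences, while the miR-223 differences passed at 0.1 and at 0.2 and not at 0.4. For miR-150 the 3p arm took 0.273% to 0.975% of the reads, and no difference between its shares passed the threshold.

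**Figure D4:**
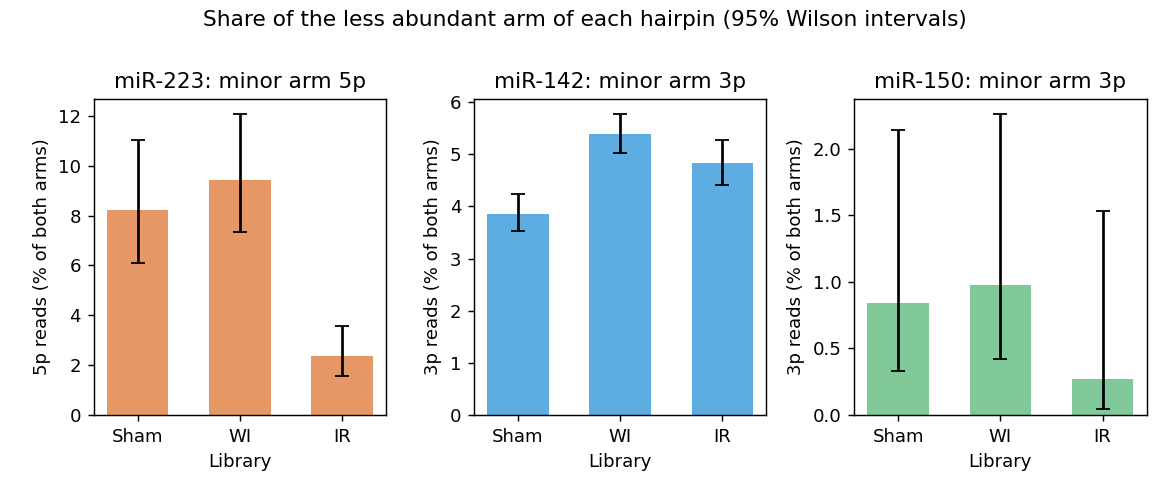
Share of the less abundant arm among the reads of both arms (y axis, percent, each panel with its own range from 0) for miR-223, miR-142 and miR-150 in the 3 libraries, with bars for 95% Wilson intervals. The miR-223-5p share drops to 2.38% in IR from 8.23% in Sham, and the miR-142-3p share is highest in WI at 5.39%.

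Red-cell microRNAs were also higher in IR. MiR-451a, made in the erythroid lineage by a route that bypasses Dicer, had 4107 reads (Sham), 4666 (WI) and 7028 (IR). Relative to Sham, the log2 fold change was -0.11 in WI (SE 0.031) and 0.83 in IR (SE 0.028), and it was called in both comparisons with IR. Of 5 red-cell microRNAs (miR-451a, both arms of miR-144, both arms of miR-486), 4 were called higher in IR against Sham (5.68% of all tested were) and 3 in IR against WI (6.21% of all tested). In WI against Sham 0 were called, beside 1.92% of all tested. Their summed level was 5062 CPM (Sham), 4786 (WI) and 9028 (IR).

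The reads of miR-451a per read of miR-223-3p were 9.44 (Sham), 8.84 (WI) and 7.79 (IR). From Sham to IR the log2 change of this ratio was -0.28 (SE 0.089, Fisher's exact p = 0.00176). From WI to IR it was -0.18 (Fisher's exact p = 0.0317), which did not pass the threshold. This ratio was added after the values had been seen, and with a coefficient of variation of 0.1 added to each count the Sham to IR change did not pass either. With miR-451a in place of miR-223-3p as the reference, 4 of the 5 ratios changed in both comparisons with IR. From Sham to IR the log2 changes were -1.05 for miR-142-5p, -0.71 for miR-142-3p, -1.15 for miR-150-5p and -1.60 for miR-223-5p. MiR-451a was itself higher in IR, by 0.83 (log2) against Sham and 0.94 against WI. A microRNA with no change of its own would have a ratio to miR-451a lower by that much, so this count is not separate evidence. The part of blood content in the miR-223-3p result was not tested.

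Other leukocyte microRNAs were counted from a list of 8, namely both arms of miR-342, miR-155, miR-146a and miR-146b. Of these, 2 had 0 reads in every library (miR-155-3p and miR-146b-3p), and 0 of the other 6 were called in any comparison. Since 1.92% to 9.25% of all tested microRNAs were called in a comparison, a count of 0 in 6 is near the background. The summed level of the list was 1817 CPM (Sham), 1779 (WI) and 1800 (IR). MiR-342-3p, which lies in the gene Evl and is common in lymphocytes, was the member of the list that came nearest to a call. It was at 136 CPM (Sham), 95.4 (WI) and 109 (IR). Relative to Sham this was a log2 fold change of -0.51 in WI (SE 0.091, Fisher's exact p = 2.52e-08) and -0.32 in IR (SE 0.094, Fisher's exact p = 0.000588).

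MiR-155-5p, induced in activated lymphocytes and macrophages, had 80 reads (Sham), 81 (WI) and 55 (IR), and no comparison passed the threshold (Fisher's exact p = 0.0580 for IR against Sham). MiR-146a-5p, a target of NF-κB, was at 1469, 1478 and 1470 CPM. MiR-146b-5p, of the same seed family, was at 184, 182 and 203 CPM.

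Other cell types were followed for comparison. Of the 4 hepatocyte and 2 endothelial microRNAs (both arms of miR-126a), 0 were called in any comparison, which is again near the background of 1.92% to 9.25%. Among 3 muscle microRNAs, miR-133a-3p was called in all 3 comparisons with 27 reads (Sham), 115 (WI) and 280 (IR). MiR-1a-3p had 0, 1 and 6 reads and miR-206-3p had 0, 0 and 1. The part of muscle RNA in the results for the members was not tested.

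The microRNAs most like each major arm were found by the distance between the pairs of log2 fold changes (WI against Sham, IR against WI). They were sought among 274 microRNAs outside the 6 members with at least 100 reads, over the 3 libraries. Closest to miR-223-3p were miR-215-5p (distance 0.11), miR-714 (0.12) and miR-486-5p (0.20). MiR-215-5p had 218 reads (Sham), 278 (WI) and 449 (IR). Within 0.2 of miR-223-3p there were 4 microRNAs. MiR-486-5p is 1 of the red-cell microRNAs counted above. Red-cell miR-451a had log2 fold changes of -0.11 (WI against Sham) and 0.94 (IR against WI), beside -0.017 and 1.12 for miR-223-3p. MiR-144-3p of the same list lay further off (0.42 and 0.20). The profile was thus not particular to miR-223-3p.

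The other major arms lay in the dense centre of the distribution. Within 0.2 of miR-142-5p there were 56 microRNAs, the closest being miR-330-5p, miR-107-3p and miR-872-5p (distances 0.010 to 0.027). Within 0.2 of miR-150-5p there were 36, the closest being miR-872-3p, miR-335-3p and miR-221-5p (distances 0.029 to 0.053). The profiles of miR-142-5p and miR-150-5p were therefore shared by many microRNAs of the liver libraries.

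**Figure D5:**
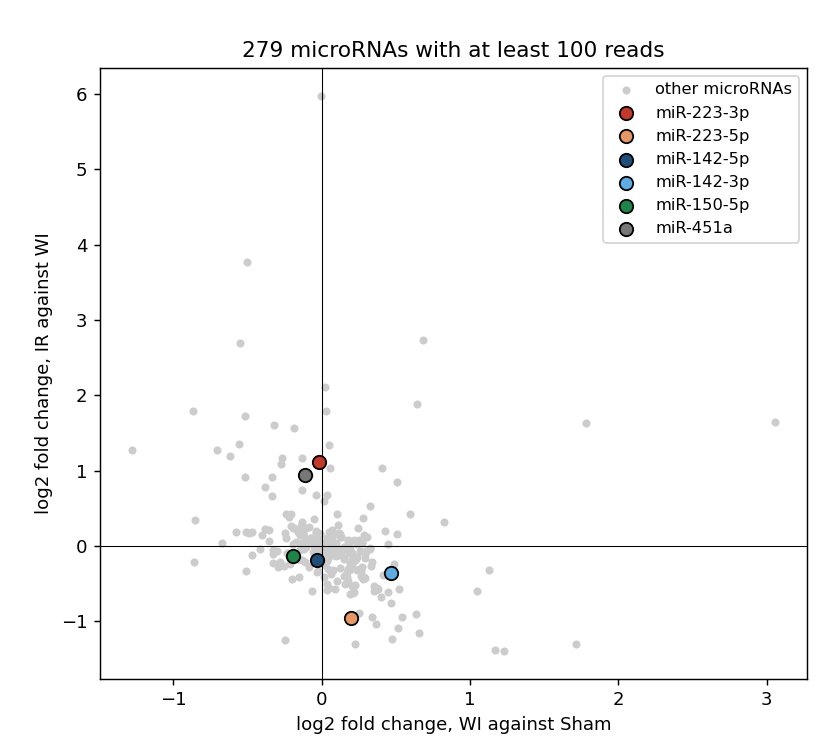
Log2 fold change in IR against WI (y axis) plotted against that in WI against Sham (x axis) for the 279 microRNAs with at least 100 reads, with 5 members and miR-451a coloured. MiR-223-3p stands near miR-451a above the centre, miR-142-5p and miR-150-5p lie in the central cloud, and miR-223-5p lies below it.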

How the data were processed

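Small RNA libraries of mouse liver were counted per mature microRNA, with 1 library each for Sham, WI and IR, grouped by title. The authors trimmed adaptors, dropped reads of low quality or unfit length, aligned the rest with Bowtie 0.12.7, sorted them into RNA classes with HTSeq and deposited raw read counts from miRDeep2. The methods name mm9 for small RNA, whereas the submitters' processing notes name mm10. The tables hold no coordinates. PCR copies were counted as reads.

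Counts were scaled by TMM (edgeR 4.0.16, R 4.3.3) with factors between 0.961 and 1.03, and fold changes were taken on log2(CPM + 0.1), which understates changes of rare microRNAs. Fisher's exact test (two-sided, scipy 1.17.1) used reads and scaled totals wherever either library had at least 1 read. The quasi-likelihood test of edgeR could not be fitted without replicates. Ratio and arm tests used Fisher's exact test on reads of 2 microRNAs. SEs come from the counts.

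Members, lists and tests were chosen with earlier results of these data known. Named microRNAs are the 6 members, miR-142b, miR-451a, the marker lists, and the 3 closest profiles to each major arm. MiR-3964 was named after its sequence had been compared. On simulated libraries for IR against Sham with 1908 microRNAs and changes of 2 on the log2 scale, 85 of the 86 changed microRNAs that had at least 30 reads were recovered, beside 1 call among 561 unchanged. With an added coefficient of variation of 0.2 they recovered 80 of 82 and made 35 calls among 548 unchanged. All log2 fold changes of the members were smaller than the simulated ones, and the recovery of smaller changes was not simulated. Alternatives changed the scaling (DESeq2 1.42.0, totals), filter, depth, pseudocount, test and thresholds.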

Additional observations from a re-analysis of the deposited data

How the results depend on the processing

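With 1 library per group no library could be left out. No paired analysis was possible because each group has 1 library. Under the 7 alternatives that can move a log2 fold change, direction and call of the 6 members stayed as reported in 115 values, while 2 calls were lost, 2 gained and 7 signs changed, none of them of a called change. The other 6 change only the test or threshold, and 6 of their 108 values lost a call. These counts follow sign and call, and a shift of a p-value alone is not counted in them. MiR-223-3p stayed between 0.79 and 1.19 in IR against WI and between 0.93 and 1.12 in IR against Sham, and lost its calls at a coefficient of variation of 0.4, where 0 members were called in both comparisons (edgeR's exact test, p = 0.187 and 0.193).

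The number of members called in IR against WI was 2 as reported and 1 with library totals, with at least 10 reads over the 3 libraries, with a coefficient of variation of 0.1 or 0.2, or at a fold change above 2, in each case without miR-223-5p. Genome-aligned totals shifted the median log2 fold change of all tested microRNAs to 0.20 from Sham to WI, -0.32 from WI to IR and -0.092 from Sham to IR. With them 1 member, miR-142-3p, was called in WI against Sham, and the changes of sign were miR-223-3p (0.14) and miR-142-5p (0.12) in WI against Sham and miR-142-3p (-0.056) in IR against Sham. MiR-150-3p, with 5 and 4 reads, changed sign in WI against Sham with a minimum of 10 reads (-0.014), with totals that leave out the top 10 microRNAs (-0.056), with library totals (-0.069) and with size factors from DESeq2 (-0.018).

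Ratios to miR-223-3p do not depend on scaling. With a coefficient of variation of 0.1, 0.2 or 0.4 added, the changed ratios in WI against Sham went from 1 to 0. In both comparisons with IR (against WI and against Sham) they went from 4 to 1 at 0.2, where only miR-223-5p passed and no miR-142 or miR-150 ratio did, and to 0 at 0.4. Arm ratios were counted over the hairpins of the members only. The changed ones went from 1 to 0 in WI against Sham at all 3 values and from 1 to 0 in IR against WI at 0.4. In IR against Sham they went from 2 to 1 (0.1 and 0.2) and to 0 (0.4). Set against miR-451a in place of miR-223-3p, the ratio of miR-142-5p in WI against Sham changed sign to 0.079, and 4 ratios changed in both comparisons with IR. MiR-451a was itself called higher in both, so this count is not separate evidence. Variation between animals was not measured, so which coefficient of variation applies is not known.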
